A study of Mus musculus with 2 samples.

Results

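The 10 genes described here encode the 4 Notch receptors of the mouse (Notch1, Notch2, Notch3 and Notch4), 3 of their ligands (Jag1, Jag2 and Dll4) and 3 genes that Notch signaling switches on (Heyl, Hey1 and Nrarp). They were chosen by name among the 32287 features of the count matrices, each name matched exactly 1 feature, and all 10 had counts. Transcripts were measured in single cells of thoracic aortas from 2 GFPiSMC mice (designated WT, n = 2 aortas, 1 group). These mice carry the Myh11-CreERT2 transgene, whose Cre is driven by the promoter of a smooth muscle myosin gene, and the mT/mG reporter, which changes from tdTomato to eGFP after recombination. Both animals, males per the study's methods, had received tamoxifen (1 mg/d, intraperitoneally) from 3 weeks of age for 5 days and were 12 weeks old at analysis, on the C57BL/6J background. Viable single cells were sorted without a gate on GFP per the labels, so the cells of all aortic layers were kept and the comparisons are among cell types, not among treatments. No untreated or Cre-free aorta was analysed here, and recombination was not equal among the cell types: tdTomato was at 36.0 and 43.6 CPM (counts per 1000000 UMIs) in SMCs and 1296 and 1303 CPM in endothelial cells of aortas 1 and 2. In a comparison of SMCs with another type, the cell type and Cre recombination therefore cannot be told apart.

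Notch receptors and their Jagged or Delta-like ligands are both membrane proteins, so that signaling passes between touching cells. Ligand binding exposes the receptor to cleavage by ADAM proteases and then γ-secretase, and the freed intracellular domain joins the DNA-binding protein RBPJ and the coactivator MAML to switch on genes of the Hes and Hey families and the feedback inhibitor Nrarp. In arteries, Notch1 and Notch4 are known as endothelial receptors and Notch3 as the receptor of smooth muscle cells (SMCs) and other mural cells, where Jag1 on endothelium and on SMCs themselves serves as ligand.

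The 10 genes lie on chromosomes 2, 3, 4, 12 and 17 of the mouse genome GRCm38 with the GENCODE M21 annotation. The receptor genes are Notch1 (chromosome 2, bases 26457903 to 26516663, minus strand), Notch2 (chromosome 3, 98013527 to 98150361, plus strand), Notch3 (chromosome 17, 32120820 to 32166852, minus strand) and Notch4 (chromosome 17, 34564268 to 34588503, plus strand). The ligand genes are Jag1 (chromosome 2, 137081456 to 137116644, minus strand), Jag2 (chromosome 12, 112907819 to 112929776, minus strand) and Dll4 (chromosome 2, 119325784 to 119335962, plus strand). The target genes are Heyl (chromosome 4, 123233556 to 123249875, plus strand), Hey1 (chromosome 3, 8663359 to 8667256, minus strand) and Nrarp (chromosome 2, 25180758 to 25183339, plus strand). Genes on the opposite strand overlap Notch1 (0610009E02Rik, Gm13568), Notch3 (Gm17276), Notch4 (Gm20462), Dll4 (Gm14207) and Nrarp (Gm38287), and on the same strand Mir6996 overlaps Notch1, Gm42819 and Gm42820 overlap Notch2 and Mir6941 overlaps Jag2. The use of strand in the counting was not given in the sources used here, so reads of these overlaps are not told apart from those of the listed gene.

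The upstream windows of Notch3 and Nrarp are shown because both genes were highest in the same SMC subset described further on, and because their windows overlap no annotated exon. Promoters of 8 of the 10 genes were matched in RefSeq (GRCm38.p6), and Heyl and Hey1 were not matched. In the 250 bases before the start of each of the 8, the RBPJ core was searched as TGGGAA on both strands and the E-box, the site of basic helix-loop-helix proteins such as the Hey family, as CACGTG. The RBPJ core was in none of the 8 windows, whereas 21.6% of 32851 promoters of the same length held it. The E-box was in the Nrarp window alone of the 8, 108 bases before the start, and 6.02% of all promoters held it. Capitals mark the E-box, and both sequences run 5′ to 3′ in the direction of the gene (Notch3, chr17:32166891-32167140, minus strand; Nrarp, chr2:25180508-25180757, plus strand).
Notch3: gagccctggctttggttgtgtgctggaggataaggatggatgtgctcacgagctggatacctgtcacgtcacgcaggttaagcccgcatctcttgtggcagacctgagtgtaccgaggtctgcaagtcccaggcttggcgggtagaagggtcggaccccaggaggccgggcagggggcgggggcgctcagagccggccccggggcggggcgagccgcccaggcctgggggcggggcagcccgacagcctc
Nrarp: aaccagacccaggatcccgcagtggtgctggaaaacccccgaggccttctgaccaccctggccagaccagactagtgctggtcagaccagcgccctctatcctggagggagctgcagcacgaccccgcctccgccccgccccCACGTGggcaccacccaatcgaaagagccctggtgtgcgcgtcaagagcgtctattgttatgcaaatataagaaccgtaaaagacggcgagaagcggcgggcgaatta

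The libraries held 8947 and 6263 cells (47009780 and 30919996 UMIs, molecular barcodes that count captured RNA molecules). After filters, 6539 cells of aorta 1 and 4614 of aorta 2 were analysed, with medians of 5671 and 5396.5 UMIs per cell, and 10 barcodes occurred in both libraries. Clusters were named from marker genes, and each name stands for cells like that type. They gave 3851 SMCs, 2767 fibroblasts, 1392 endothelial cells, 123 lymphatic endothelial cells, 433 mesothelial cells, 1560 myeloid cells, 979 lymphocytes and 35 erythroid cells, with 13 cells unnamed. SMCs held 6715 and 6241 CPM of eGFP and endothelial cells held 126 and 177 CPM. Fibroblasts held 503 and 495 CPM of eGFP. Among them, 2 clusters with 398 cells (14.4%) carried SMC markers at over 10% of the SMC level in both aortas and eGFP at 2762 and 2783 CPM in the one and 2835 and 4106 CPM in the other, so these cells go against a label of fibroblasts alone. The SMCs include a shallow cluster (720 cells, median 1761 UMIs). All levels below are CPM over the summed cells of a type or subset in 1 aorta.

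The receptors were divided among the cell types, with Notch1 and Notch4 highest in endothelium, Notch3 in SMCs and Notch2 in myeloid cells. Each of the 10 genes differed among the 8 types (edgeR F test, largest adjusted p = 3.34e-08), but so did 91.7% of the 13981 genes tested. Notch1 stood at 209 and 192 CPM in endothelial cells and at 216 and 256 CPM in lymphatic endothelial cells, which did not differ beyond their spread (adjusted p = 0.794). Myeloid cells (43.2 and 45.7 CPM) and lymphocytes (43.1 and 39.6 CPM) formed a middle level and did not differ from each other (adjusted p = 0.454). SMCs held 7.10 and 4.37 CPM and fibroblasts 5.64 and 5.63 CPM, again without a difference beyond the spread (adjusted p = 0.519). Endothelial cells therefore exceeded SMCs in both aortas with no overlap.

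Notch4, a receptor known from endothelium, was at 57.2 and 63.3 CPM in endothelial cells. Lymphatic endothelial cells held 6.00 and 11.8 CPM, from 1 and 3 UMIs, and were lower (log2 difference 3.03 ± 0.50 SE, adjusted p = 6.01e-05). In SMCs, fibroblasts, mesothelial cells, myeloid cells and lymphocytes the level was between 0.895 and 1.98 CPM, and no neighbours in that order differed beyond their spread. The endothelial types thus shared Notch1 but not Notch4.

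Notch3, the mural cell receptor, was at 21.5 and 20.2 CPM in SMCs. Fibroblasts followed at 7.13 and 6.21 CPM and were lower than SMCs (log2 difference 1.73 ± 0.22 SE, adjusted p = 2.29e-07). A subset of 116 of the SMCs, called SMC5 below, held 121 of the 360 and 98 of the 235 Notch3 UMIs of SMCs, and without it the SMC level was 14.7 and 12.2 CPM. Another, SMC1, was at 3.62 and 2.98 CPM, below the fibroblasts. Endothelial cells held 1 and 2 UMIs (0.331 and 0.879 CPM). Over both aortas, 595 UMIs in SMCs against 3 in endothelial cells gave a ratio of 37.0, with an exact 95% counting interval of 12.6 to 180. The endothelial level was 0.0154 and 0.0436 of the SMC level, within or under what the 7 SMC markers gave (0.0160 to 0.0727 in aorta 1 and 0.0118 to 0.0836 in aorta 2), and is therefore not read as expression.

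Notch2, the receptor with the widest spread over types, had its highest level in myeloid cells (119 and 94.7 CPM), above fibroblasts at 63.9 and 66.4 CPM (log2 difference 0.87 ± 0.13 SE, adjusted p = 2.97e-06). Mesothelial cells (71.1 and 54.5 CPM) and SMCs (51.7 and 45.9 CPM) came next, and from fibroblasts downward no neighbours in the order differed beyond their spread. Endothelial cells were low at 26.5 and 26.8 CPM, and lymphocytes held 33.7 and 22.1 CPM.

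**Figure D1:**
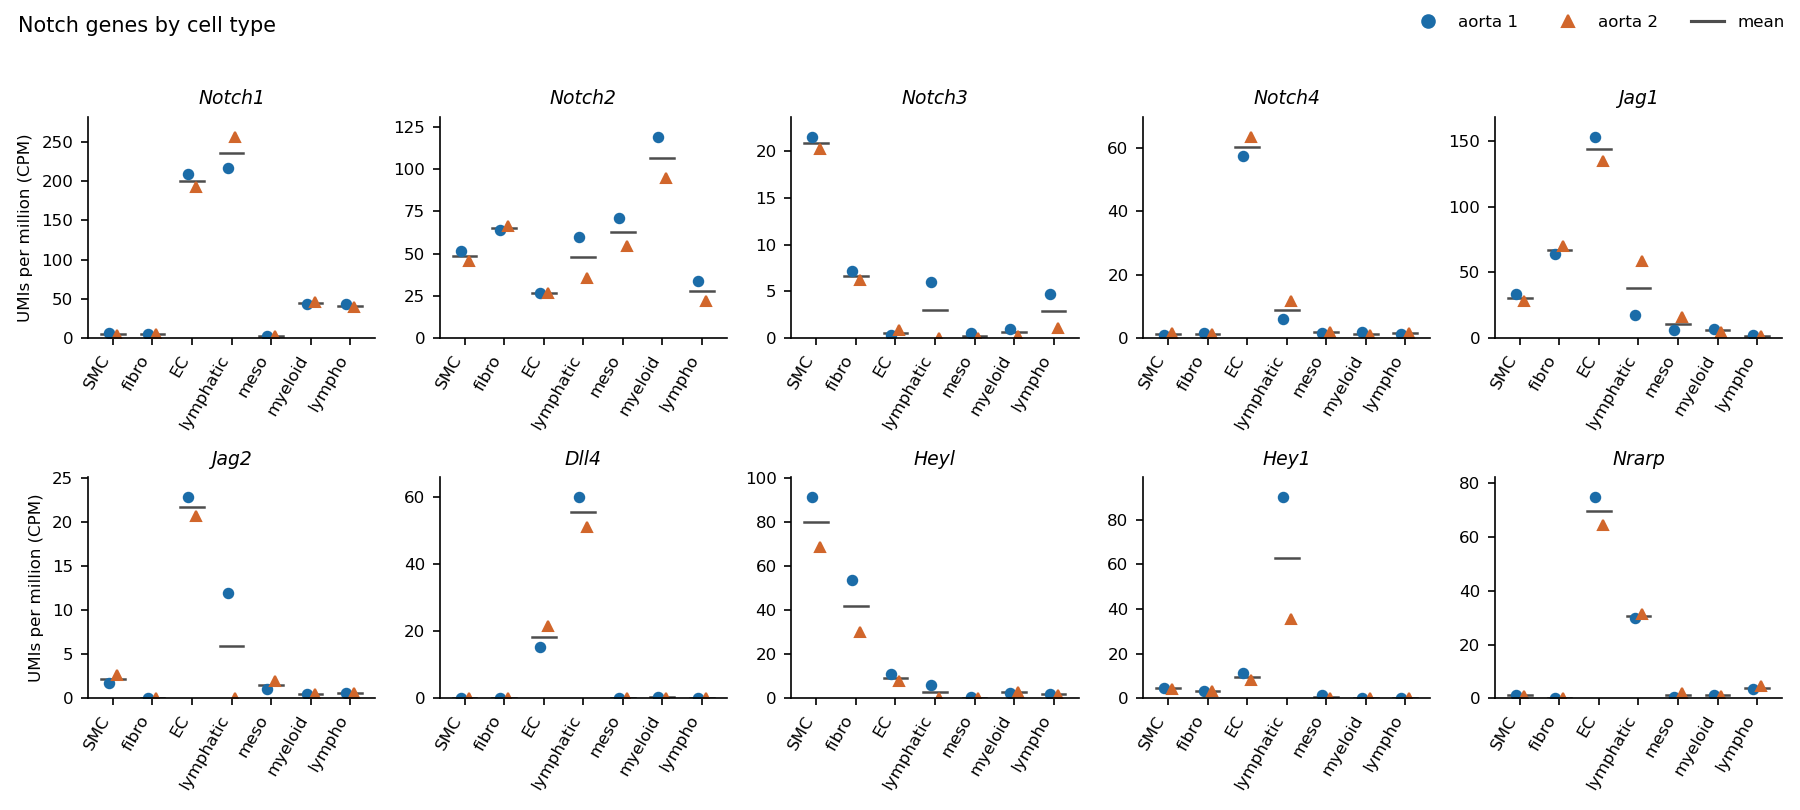
Level of each of the 10 Notch genes (CPM, linear axis from 0) in 7 cell types, with a circle for aorta 1, a triangle for aorta 2 and a line for their mean (n = 2; EC, endothelial cells; erythroid and unnamed cells not drawn). Notch1, Notch4 and Nrarp stand highest in endothelial types, Notch3 and Heyl in SMCs, and Notch2 in myeloid cells, where it reached 119 and 94.7 CPM.

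All 3 ligands were higher in endothelial cells than in SMCs. Endothelial cells held 153 and 135 CPM of Jag1, fibroblasts 64.3 and 70.2 CPM and SMCs 33.6 and 28.0 CPM, 3 levels without overlap. Lymphatic endothelial cells ranged widely for Jag1, with 18.0 CPM from 3 UMIs in aorta 1 and 59.1 CPM from 15 UMIs in aorta 2. The SMC level of Jag1 was 0.219 and 0.208 of the endothelial level, whereas the 6 endothelial markers reached at most 0.00989 and 0.0122 of their endothelial level in SMCs. The part of carried-over RNA in the Jag1 level of SMCs was not tested.

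Jag2, the second Jagged ligand, was at 22.8 and 20.7 CPM in endothelial cells and at 1.73 and 2.66 CPM in SMCs. Fibroblasts held 1 UMI of Jag2 in aorta 1 and 0 in aorta 2. Dll4, the Delta-like ligand of arterial and sprouting endothelium, was at 15.2 and 21.5 CPM in endothelial cells and at 60.04 and 51.2 CPM in lymphatic endothelial cells. The latter values rest on 10 and 13 UMIs, and the lymphatic and blood endothelial levels of Dll4 did not differ beyond their spread in the fit (log2 difference 1.22 ± 0.48 SE, adjusted p = 0.0945). SMCs held 4 UMIs of Dll4 in aorta 1 and 0 in aorta 2, where 3 UMIs would have given 0.257 CPM. No UMI of Dll4 was found in lymphocytes or mesothelial cells.

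The 3 target genes did not follow 1 cell type. Heyl, a transcriptional repressor of the Hey family, was at 91.3 and 68.8 CPM in SMCs, 53.8 and 30.2 CPM in fibroblasts and 10.9 and 7.91 CPM in endothelial cells. Within each aorta SMCs exceeded fibroblasts, and fibroblasts exceeded endothelial cells (log2 difference 2.26 ± 0.30 SE, adjusted p = 6.12e-07). Nrarp, which feeds back on the receptor's intracellular domain, had an endothelial level of 74.7 and 64.6 CPM, a lymphatic level of 30.02 and 31.5 CPM and a lymphocyte level of 3.37 and 4.53 CPM. The lymphatic level of Nrarp was lower than the endothelial level (log2 difference 1.55 ± 0.36 SE, adjusted p = 0.00247), and SMCs were at 1.43 and 1.03 CPM.

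Hey1, another repressor of that family, was highest in lymphatic endothelial cells, at 90.1 and 35.5 CPM from 15 and 9 UMIs, against 11.2 and 8.35 CPM in endothelial cells (log2 difference 2.17 ± 0.48 SE, adjusted p = 0.00193). SMCs held 4.59 and 4.37 CPM and fibroblasts 3.56 and 3.32 CPM. In the lymphatic cells of aorta 1, eGFP stood at 1015 CPM and the sum of the 7 SMC markers at 2750 CPM, against 82.8 and 966 CPM in aorta 2. The part of these SMC transcripts in the lymphatic values was not tested.

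Unlike the levels per type, shares of a gene's UMIs among the analysed cells depend on cell numbers and on UMIs per cell. No total of the tissue was measured. Of all Notch3 UMIs, 79.1% and 83.0% came from SMCs (exact 95% intervals 75.1% to 82.8% and 78.1% to 87.2%, which cover counting error only), and of all Heyl UMIs 71.8% and 76.9%. Endothelial cells, 11.3% and 14.2% of the cells, held 77.6% and 77.4% of the Notch4 UMIs, 81.0% and 80.3% of the Nrarp UMIs and 73.0% and 76.6% of the Dll4 UMIs. For Jag1, the largest share belonged to fibroblasts (37.2% and 41.5%), with SMCs at 32.2% and 27.9% and endothelial cells at 26.5% and 26.2%. SMCs held 77 of 167 and 51 of 102 Hey1 UMIs although their level was below that of endothelium. Notch2 was split among SMCs (33.8% and 35.5%), fibroblasts (25.2% and 30.6%) and myeloid cells (28.4% and 23.0%).

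**Figure D2:**
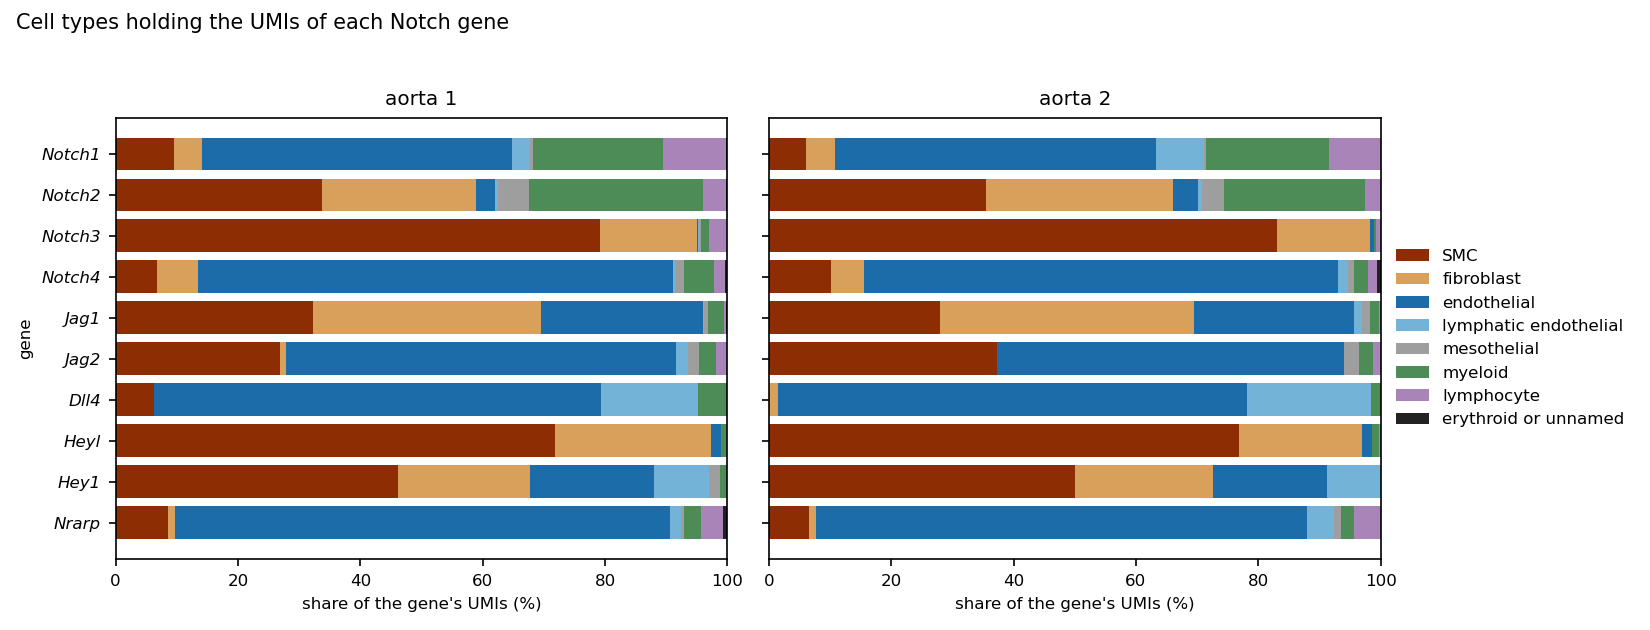
Share of the UMIs of each Notch gene (percent, stacked bars from 0 to 100) held by each cell type, with 1 panel per aorta. SMCs hold most Notch3 and Heyl UMIs, endothelial cells most Notch4, Nrarp and Dll4 UMIs, and Jag1 and Notch2 are divided among several types in both panels.

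Detection per cell is given for Notch1 and Heyl. A Notch1 UMI was found in 52.4% and 45.6% of endothelial cells (median 3738 and 3042 UMIs per cell) and in 4.57% and 3.15% of SMCs (median 7768 and 7486.5 UMIs). With each cell thinned to 1000 UMIs, a depth that every analysed cell reached, the shares were 19.2% and 19.6% in endothelial cells and 0.761% and 0.618% in SMCs. A Heyl UMI was found in 40.3% and 33.0% of SMCs and, after thinning, in 7.97% and 6.06%, against 0.162% and 0% of thinned lymphocytes (median 4081 and 3876.5 UMIs before thinning, unthinned 0.646% and 0.833%). The lymphocyte share serves as the background for Heyl.

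SMCs and endothelial cells had 9 of the 10 genes called as different. A call needed an adjusted p below 0.05 together with a log2 fold change beyond 1 in either direction (edgeR quasi-likelihood test on sums per aorta and type). Higher in SMCs were 3 of 10 genes, against 14.5% of all genes tested, and higher in endothelial cells were 6 of 10, against 15.4%. The SMC side held Notch3 (log2 fold change 5.33 ± 0.48 SE, adjusted p = 8.38e-10), Heyl (3.27 ± 0.27, adjusted p = 1.93e-10) and Notch2 (1.09 ± 0.18, adjusted p = 1.10e-05). The endothelial side held Dll4 (-6.55 ± 0.53), Nrarp (-5.55 ± 0.23), Notch4 (-5.40 ± 0.24), Notch1 (-4.87 ± 0.15), Jag2 (-3.12 ± 0.32) and Jag1 (-2.01 ± 0.15), with adjusted p between 3.25e-19 and 9.64e-09. Hey1 was lower in SMCs with a log2 fold change of -0.93 ± 0.34 (adjusted p = 0.0256), short of the fold limit. In aorta 1 alone the value was 6.14 for Notch3 and -5.63 for Dll4, and in aorta 2 alone it was 4.64 for Notch3 and -9.08 for Dll4, where SMCs had no Dll4 UMI. Library-size scaling moved the median of all genes by -0.21 and DESeq2 by -0.22 on the log2 scale. Under these scalings Notch2 kept its direction but lost its call (0.88 and 0.86), and it stood at 0.95 in aorta 2 alone, whereas Hey1 gained one (-1.14 and -1.15). Without SMC5, a subset of 116 SMCs described below, Notch3 stood at 4.71 and Nrarp at -6.92, and both kept their calls.

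SMCs and fibroblasts differed less. Higher in SMCs were 4 of 10 genes (10% of all genes tested), namely Jag2, Nrarp, Notch3 and Heyl, and higher in fibroblasts was 1 of 10 (15.4% of all genes). Jag2 rested on 60 UMIs in SMCs and 1 in fibroblasts, a ratio of 35.9 with an exact 95% counting interval of 6.21 to 1443. Nrarp had a log2 fold change of 2.10 ± 0.53 (adjusted p = 0.00164), from 24 and 12 UMIs in SMCs and 3 and 2 in fibroblasts. Of these SMC UMIs of Nrarp, 15 and 8 lay in the subset of 116 cells called SMC5 below. Without SMC5, Nrarp differed by 0.73 ± 0.64 (adjusted p = 0.370) and was no longer called, and the Notch3 difference fell from 1.73 to 1.11 ± 0.24 (adjusted p = 0.000427) and kept its call. The Heyl call was lost as well (0.96 ± 0.18), so that 2 of 10 genes were then higher in SMCs (10% of all genes tested). The Heyl difference (1.01 ± 0.17, adjusted p = 2.10e-05) and the Jag1 difference (-1.01 ± 0.15, adjusted p = 1.74e-06) lie at the fold limit. Their direction held under every alternative with a test, whereas the Heyl call was lost in 6 of 13 and the Jag1 call in 7 of 13. Without aorta 2 they stood at 0.88 and -0.81. With at least 5000 UMIs per cell, Nrarp fell short of its call (0.92, adjusted p = 0.263). Notch1 (0.18 ± 0.22), Notch2 (-0.31 ± 0.13), Notch4 (-0.17 ± 0.38), Dll4 (1.02 ± 1.28, from 4 UMIs against 1) and Hey1 (0.48 ± 0.33) were not called. DESeq2 moved the median of all genes in this comparison by -0.29, and of the genes it called 26.8% were higher in SMCs, against 39.5% of those called by edgeR. Without the 2 fibroblast clusters that carried SMC markers, Notch3 differed by 2.08 ± 0.23 and Heyl by 1.14 ± 0.18.

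Endothelial cells and fibroblasts were separated by all 10 genes. Higher in endothelial cells were 7 of 10 (11.1% of all genes tested) and higher in fibroblasts were 3 of 10 (14.7%). Notch1 (5.04 ± 0.16), Notch4 (5.22 ± 0.25), Nrarp (7.65 ± 0.31), Hey1 (1.41 ± 0.37) and Jag1 (1.00 ± 0.15) were higher in endothelium. Jag2, with 116 UMIs in endothelial cells and 1 in fibroblasts, had a ratio of 373 (exact 95% counting interval 65.6 to 14850), and Dll4, with 95 UMIs and 1, a ratio of 305 (53.5 to 12184). Notch3 (115 UMIs in fibroblasts and 3 in endothelial cells, ratio 11.9, interval 3.98 to 58.7), Heyl (-2.26 ± 0.30) and Notch2 (-1.39 ± 0.18) were higher in fibroblasts. With the aorta as a block, Jag1 stood at 0.999 and was no longer called, and without the fibroblast clusters that carried SMC markers it stood at 0.89. In fibroblasts, Notch1 was at 0.0270 and 0.0293 and Notch4 at 0.0259 and 0.0228 of the endothelial level. The 6 endothelial markers were at 0.00142 to 0.0553 of their endothelial level in aorta 1 and at 0.00282 to 0.0616 in aorta 2. Kdr, which mesothelial cells held at 323 and 245 CPM, was the highest of the 6. Notch1 and Notch4 lie within these ranges, so their fibroblast levels are not read as expression. The part of carried-over endothelial RNA in the fibroblast values of Notch1 and Notch4 was not tested. Nrarp, Jag2 and Dll4 had at most 3 UMIs in the fibroblasts of either aorta. The 3 comparisons share their SMC, endothelial or fibroblast sums and are not independent.

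**Figure D3:**
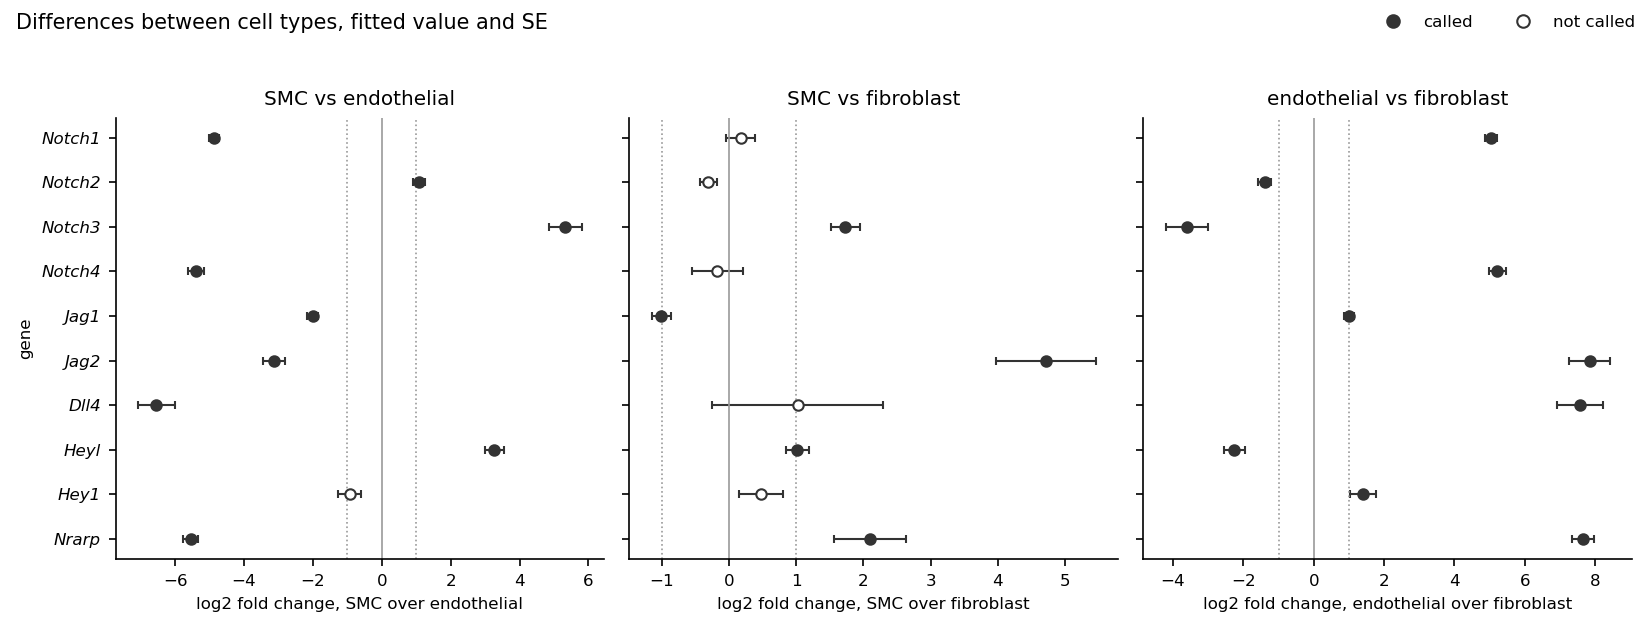
Log2 fold change of the 10 Notch genes in 3 comparisons of cell types (points, fitted values; bars, SE; filled, called; open, not called; dotted lines, fold limit; each panel has its own x axis). Notch3 and Heyl lie to the right and Notch1, Notch4, Nrarp, Jag2 and Dll4 to the left of 0 for SMCs against endothelial cells, whereas 5 genes are open for SMCs against fibroblasts.

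The wider pathway was taken as a list of 49 further genes, of which 43 could be tested. Higher in SMCs than in endothelial cells were 4 of 43 genes (14.5% of all genes tested) and higher in endothelial cells were 14 of 43 (15.4%). The SMC side held the ubiquitin ligase genes Neurl1a and Dtx1, with no UMI of either in endothelial cells, Dtx3 (1.02 ± 0.13) and the Notch antagonist Numbl (1.12 ± 0.23). The calls of Numbl and Dtx3 were lost under library-size scaling (0.91 and 0.81) and DESeq2 (0.90 and 0.80). Neurl1a was at 6.92 and 6.60 CPM and Dtx1 at 5.07 and 5.66 CPM in SMCs, where 3 UMIs in endothelial cells would have given 0.992 and 1.32 CPM. The endothelial side was led by the Fringe glycosyltransferases Mfng (-8.48 ± 0.30) and Lfng (-6.16 ± 0.41), which modify receptors, Egfl7 (-8.14 ± 0.19), a secreted endothelial protein, the ligand Dll1 (-5.66 ± 0.20) and the receptor sheddase Adam10 (-3.42 ± 0.11). The targets Hes1 (-1.81 ± 0.19) and Hey2 (-1.85 ± 0.11) were higher in endothelium too. Rbpj, the DNA-binding partner of all 4 receptors, was at 67.7 and 64.4 CPM in SMCs and 67.5 and 58.0 CPM in endothelial cells and was not called (0.28 ± 0.13, adjusted p = 0.0899).

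Against fibroblasts, 2 of the 43 genes were higher in SMCs, Neurl1a (2.90 ± 0.45) and Hey2 (1.83 ± 0.13), against 10% of all genes tested, and 10 were higher in fibroblasts, against 15.4%. Hey2 was at 35.4 and 33.8 CPM in SMCs and 10.4 and 10.5 CPM in fibroblasts, the same direction as Heyl. The fibroblast side was led by Dner (-6.61 ± 0.42), encoding a neural ligand, Dtx4 (-5.54 ± 0.24), Lfng (-4.24 ± 0.46), the fucosyltransferase gene Pofut1 (-1.41 ± 0.15) and Numbl (-1.39 ± 0.14), and it included Hes1 (-1.29 ± 0.17). Rbpj (-0.89 ± 0.11), Dll1 (0.78 ± 0.37) and Mfng (-1.07 ± 0.79) were not called. Endothelial cells exceeded fibroblasts in 8 of the 43 genes (11.1% of all genes tested), led by Egfl7 (7.75 ± 0.19), Mfng (7.40 ± 0.30), Dll1 (6.43 ± 0.23), Hey2 (3.68 ± 0.13) and Adam10 (2.60 ± 0.11), and fibroblasts exceeded endothelial cells in 7 (14.7% of all genes), among them Dner (-6.42 ± 0.63), Dtx4 (-4.99 ± 0.34), Numbl (-2.50 ± 0.21), Maml3 (-1.75 ± 0.21) and Dtx1, which had no UMI in endothelial cells. Lfng (1.92 ± 0.27) was higher in endothelium and Rbpj (-1.17 ± 0.13) in fibroblasts.

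Within the SMCs, 6 subsets had at least 20 cells in each aorta. They were made without the Notch genes and the pathway list, and are called SMC0 to SMC5. SMC0 (1087 cells) was led by the stress genes Atf3, Hspa1b and Hspa1a together with Hand2 and Tbx20, SMC1 (883 cells) by Lamc3, Dlx5 and Lrrtm3, and SMC2 (835 cells) by Hoxa7 and Hoxb7. SMC3 (746 cells) and SMC4 (135 cells) had medians of 1755.5 and 1856 UMIs per cell, and SMC5 (116 cells) was led by Pln, Pgf, Gja4 and Kcna5, with Notch3 itself among its 10 leading genes. The sum of 6 stress genes (Gdf15, Cdkn1a, Mdm2, Fos, Jun and Hspa1a) was 1706 and 1158 CPM in SMC0, 1056 and 908 CPM in SMC2, and 718 and 583 CPM in SMC1. It was 1867 CPM in aorta 1 and 543 CPM in aorta 2 for SMC5, 717 and 1419 CPM for SMC4 and 428 and 309 CPM for SMC3. The part of stress in the Notch gene levels of the subsets was not tested. Of the 10 Notch genes, 7 passed the filter on low counts, and Notch4, Jag2 and Dll4 did not. All 7 that were tested differed among the subsets, against 47.0% of the 11169 genes tested (edgeR F test). Without SMC5, the SMCs held 9 and 4 UMIs of Nrarp (0.554 and 0.355 CPM). Nrarp therefore passed the filter through SMC5, and its part of this count is not independent of the filter. The subsets come from these same cells, so the test describes how the genes follow them.

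Among the 7 tested genes, SMC5 held the highest levels of Notch1, Notch3, Jag1, Heyl and Nrarp, and not of Notch2 or Hey1. How many of all genes were highest in SMC5 was not counted. Notch3 was at 231 and 242 CPM there, and between 2.98 and 29.0 CPM in the other subsets. SMC5 thus held 121 of 360 and 98 of 235 SMC UMIs of Notch3 from 64 and 52 cells. Jag1 was at 154 and 118 CPM in SMC5 and between 6.54 and 90.1 CPM elsewhere, Notch1 at 43.9 and 27.1 CPM against 1.63 to 7.51 CPM, and Nrarp at 28.6 and 19.7 CPM against at most 1.03 CPM. Heyl was at 168 and 155 CPM in SMC5, with SMC0 at 128 and 86.6 CPM. Hes1 stood at 64.8 and 93.7 CPM in SMC5 and at 7.20 to 36.8 CPM in the rest. Both SMC5 values lay above those of every other subset for Notch3, Jag1, Notch1, Nrarp, Heyl and Hes1. The share of all genes with such a gap was not counted, so this is not read as particular to Notch genes.

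The 6 markers of endothelium in general were near 0 in SMC5. Their sum was 7.63 and 22.2 CPM, against 6908 and 7433 CPM in endothelial cells, and Cdh5 had 0 and 2 UMIs. The sum of 5 venous or capillary genes was 128 and 96.2 CPM, the highest of the 6 SMC subsets, of which Nr2f2 made up 113 and 86.3 CPM, Car4 and Ackr1 being at 0. The sum of 5 arterial genes was 208 and 271 CPM, of which Fbln5 made up 204 and 271 CPM. The sum of the 7 SMC markers was 51316 and 50125 CPM in SMC5 and 46807 and 45087 CPM over all SMCs, and Myh11 was at 4306 and 4222 CPM. The sum of 5 genes often used for pericytes was 622 and 523 CPM in SMC5, 527 and 728 CPM in SMC0 and 3615 and 3106 CPM in SMC1. The members of that list differed in direction. Kcnj8 (5.72 and 12.3 CPM), Abcc9 (20.98 and 41.9 CPM) and Rgs5 (133 and 49.3 CPM) were below their SMC1 levels (221 and 199 CPM, 241 and 214 CPM, and 2899 and 2432 CPM). Cspg4 was at 442 and 417 CPM in SMC5 against 254 and 262 CPM in SMC1, and Higd1b was at 19.1 and 2.47 CPM against 0 in SMC1. When SMC5 was left out, Notch1 no longer differed among the remaining subsets (adjusted p = 0.646).

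SMC1 had low levels of Notch3, Heyl and Hey2. Notch3 was at 3.62 and 2.98 CPM, Heyl at 35.3 and 26.8 CPM and Hey2 at 5.28 and 5.97 CPM in SMC1. SMC0 and SMC2 held between 13.8 and 21.6 CPM of Notch3, between 77.8 and 128 CPM of Heyl and between 35.5 and 48.3 CPM of Hey2, without overlap with SMC1. The sum of the 7 SMC markers was also lower in SMC1 (27995 and 29835 CPM) than in SMC0 (52598 and 49953 CPM) and SMC2 (50097 and 50759 CPM), and the pericyte gene sum was highest there. The sum of the 5 arterial genes was 1556 and 1717 CPM in SMC1 against 208 to 507 CPM in the other subsets, and Fbln5 made up 1555 and 1715 CPM of the SMC1 sum. The part of these lists in the SMC1 values was not tested. Hey1 went the other way, at 13.6 and 9.28 CPM in SMC1 against 1.32 to 2.53 CPM in SMC0 and SMC2 and 5.72 and 7.40 CPM in SMC5. The ligase genes Neurl1a (25.9 and 18.9 CPM) and Dtx1 (13.9 and 16.2 CPM) were also highest in SMC1, and SMC0 and SMC2 held 1.04 to 2.79 CPM of either. Hence the SMC level of Neurl1a described above came mostly from SMC1, with 93 of 116 and 57 of 77 UMIs.

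Notch2 had the lowest F value of the 7 tested Notch genes (3.52). It was between 27.8 and 64.8 CPM in SMC0, SMC1, SMC2, SMC3 and SMC5, and at 116 and 97.6 CPM in SMC4. Its call (adjusted p = 0.0325) was lost when SMC3 and SMC4, the subsets with few UMIs per cell, were left out (adjusted p = 0.257). Of the 36 pathway genes tested, 15 differed among the subsets, against 47.0% of all genes, and under library-size scaling 24 did, against 59.4%. The 15 included Hey2 (adjusted p = 2.96e-13), Neurl1a (5.10e-09), Hes1 (1.06e-07) and Dtx1 (1.02e-06).

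**Figure D4:**
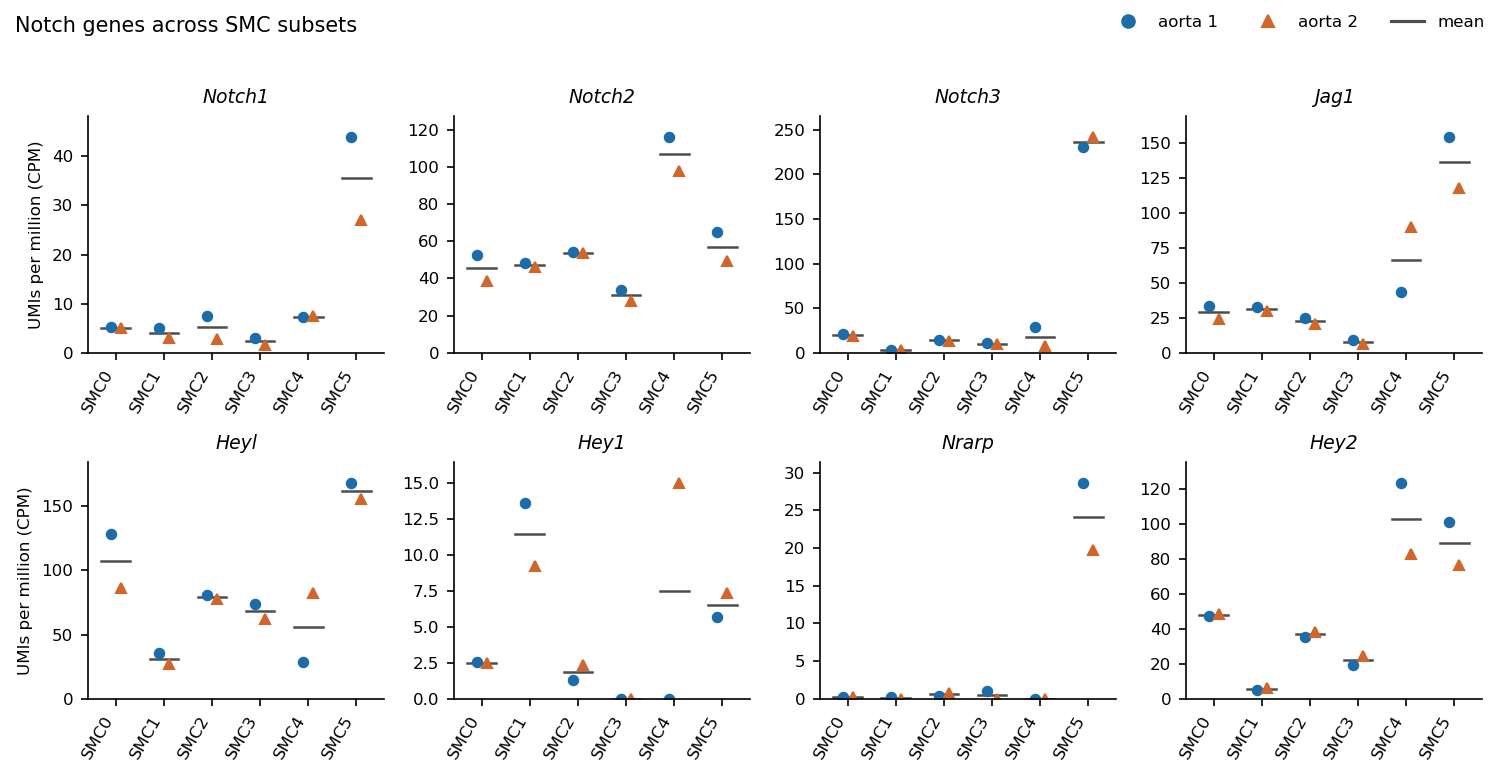
Level (CPM, linear axis from 0) of 7 Notch genes and Hey2 in the 6 SMC subsets, with a circle for aorta 1, a triangle for aorta 2 and a line for their mean (n = 2). SMC5 stands above the other subsets for Notch3, Jag1, Notch1 and Nrarp, and SMC1 is lowest for Notch3 and Hey2 and high for Hey1.

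Within the endothelium, 7 subsets were compared, called EC0 to EC6. EC0 (437 cells) was led by Nkx2-3, EC1 (237 cells) by Adra2a, Cyp4b1 and Edn1, EC2 (212 cells) by Igf2 and Sema3g, EC3 (205 cells) by Cst6 and Hand2, EC4 (201 cells) by Nrg1 with the fibroblast genes Dcn and Lum, EC5 (121 cells) by the lymphatic genes Mmrn1 and Ccl21a, and EC6 (83 cells) by Cd36, Fabp4, Gpihbp1 and Car4. Of the 8 Notch genes that passed the filter on low counts (Notch3 and Heyl did not), 7 differed among the subsets, against 32.4% of the 7945 genes tested. Jag2, Dll4 and Hey1 were low in some subsets and could pass the filter through those where they were high. Their part of this count is therefore not independent of the filter. In EC4 the sum of 6 fibroblast markers was 2339 and 2322 CPM, against at most 1152 CPM in the other subsets, and its part in the EC4 values was not tested.

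Notch1 was the exception. It lay between 134 and 264 CPM in all 7 subsets and did not differ (adjusted p = 0.836). Notch4 was at 33.2 to 87.5 CPM in the 6 blood endothelial subsets and at 6.20 and 12.2 CPM in the lymphatic subset EC5. Notch2 was low in EC2 (7.14 and 9.19 CPM) and EC6 (1 and 0 UMIs) and was at 39.3 and 51.7 CPM in EC4.

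The ligands marked different subsets. Jag2 was at 133 and 129 CPM in EC2, from 56 and 28 UMIs, with 23.6 and 83.2 CPM in EC6, 12.5 and 9.18 CPM in EC1 and no UMI in EC0. Jag2 was among the 10 leading genes of EC2, although it had no part in the clustering. Jag1 was highest in EC2 as well, at 390 and 216 CPM, against 18.6 to 155 CPM elsewhere. Dll4 was highest in EC6 (78.7 and 114 CPM) and EC5 (62.0 and 48.7 CPM), and EC3 held 0 and 1 UMI. Dll1, the other Delta-like ligand of the list, was the reverse of Dll4 in EC3, where it reached its highest level (193 and 203 CPM). The sum of the 6 stress genes was 819 and 822 CPM in EC2 against 445 to 624 CPM in EC0, EC1, EC3 and EC4, and it was 598 and 832 CPM in EC6 and 1121 and 840 CPM in EC5. Nr4a2 and Egr3, early response genes, were among the 10 leading genes of EC2, and EC2 and EC6 had the lowest medians of UMIs per cell (2318 and 2219). The part of stress and depth in these ligand levels was not tested.

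Among the targets, Nrarp was highest in EC6 (118 and 135 CPM) and lowest in EC5 in aorta 1 (31.0 CPM) and in EC1 in aorta 2 (25.2 CPM). Its difference (adjusted p = 0.00822) was lost without the lymphatic subset (adjusted p = 0.115) and with finer subsets (adjusted p = 0.0870). Hey1 was at 92.9 and 36.5 CPM in EC5, 63.0 and 20.8 CPM in EC6 and 28.6 and 23.0 CPM in EC2, and between 2.01 and 10.3 CPM in EC0, EC1, EC3 and EC4. Hey2 had the opposite order, with 1 and 0 UMIs in EC5 and none in EC6 against 101 to 194 CPM in the other 5 subsets (adjusted p = 1.94e-12). Dtx1 had UMIs in EC5 alone of the 7 subsets (297 and 304 CPM), and Mfng had none there against 23.6 to 129 CPM in the rest. In all, 15 of the 34 pathway genes tested differed among the endothelial subsets, against 32.4% of all genes.

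**Figure D5:**
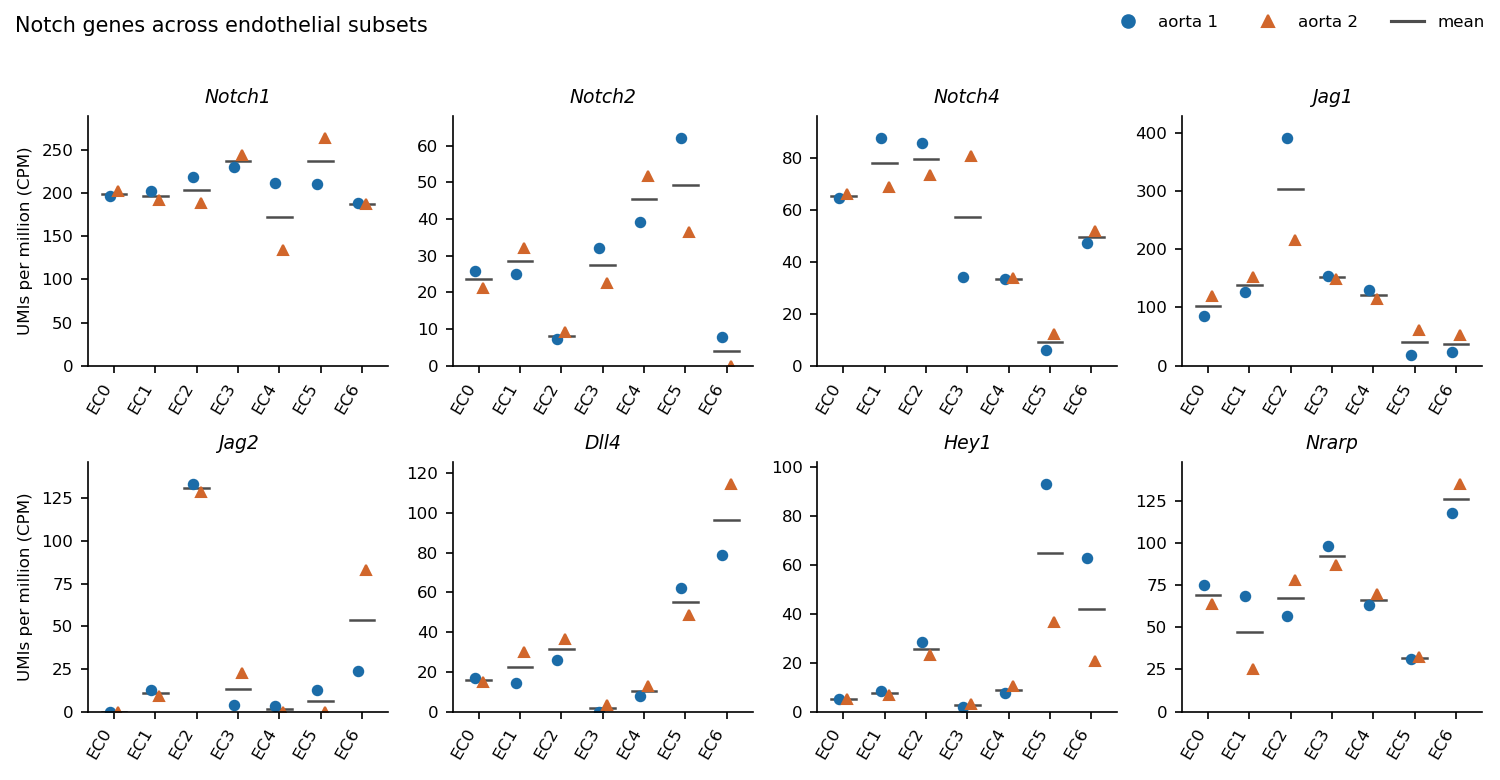
Level (CPM, linear axis from 0) of 8 Notch genes in the 7 endothelial subsets, with a circle for aorta 1, a triangle for aorta 2 and a line for their mean (n = 2; EC5 is the lymphatic subset). Notch1 is spread over all subsets, Jag1 and Jag2 peak in EC2, Dll4 and Nrarp in EC6 and Hey1 in EC5.

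Fibroblasts and immune cells also held more than 1 Notch profile, given here as values without a test. Among fibroblasts, Heyl was at 88.7 and 61.2 CPM in a cluster of 1028 cells led by Fmod and Cpxm2, and at 15.04 and 6.95 CPM in a cluster of 983 cells led by Myoc and Sfrp4. Notch3 was at 8.73 and 10.4 CPM in the first and at 0.921 and 0.435 CPM in the second. The sum of the 7 SMC markers was similar in both clusters, 1100 and 986 CPM in the first and 840 and 748 CPM in the second. A cluster of 225 cells with Tnfrsf11b and Rspo3 among its leading genes had 33.9 and 27.4 CPM of Notch3 and 158 and 88.6 CPM of Heyl, and its SMC marker sum was 17495 and 22952 CPM.

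Among lymphocytes, a cluster of 184 cells led by Rag1, Arpp21 and Dntt, genes of developing lymphocytes, had 84.2 and 55.9 CPM of Notch1 and 11 and 1 UMIs of Notch3 (38.6 and 6.21 CPM). Ptcra, encoding the pre-T cell receptor alpha chain, was at 105 and 49.7 CPM in that cluster. Its SMC marker sum was 1379 and 329 CPM, and the part of SMC transcripts in the Notch3 value was not tested. A cluster of 231 cells led by the B cell genes Igkc and Cd79a had 7.99 and 16.9 CPM of Notch1 and 84.7 and 40.1 CPM of Notch2, and a cluster of 450 cells led by Ms4a4b, Ccl5 and Nkg7 had 43.3 and 46.0 CPM of Notch1 and 11.8 and 9.20 CPM of Notch2. The B cell cluster and the Ms4a4b cluster were in reverse order for these receptors in both aortas.

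The genes whose levels went most closely with each Notch gene over 26 clusters of at least 50 cells are a description, since clusters share libraries and depth (Pearson correlation of log2(CPM + 10), 12237 genes). For Notch4 these were Sox17 (0.97), Tmem255b (0.97) and Vwf (0.96), for Nrarp Cdh5 (0.95), Arhgef15 (0.95) and Acer2 (0.94), and for Notch1 Arhgap31 (0.87), Tnfsf10 (0.83) and Cdk17 (0.83). For Notch3 they were Fbxo40 (0.85), Dgkb (0.82) and Kcnh2 (0.80), and for Heyl B3galt1 (0.96), Mark1 (0.94) and Fbxo40 (0.94). For Jag1 they were P4ha2 (0.90), Hoxb6 (0.90) and Jcad (0.90), for Hey1 Galnt18 (0.91), Ldb2 (0.90) and Fam174b (0.90), and for Notch2 Cebpb (0.75), Zfp106 (0.74) and Mthfsl (0.72). Jag2 and Dll4 had fewer than 200 UMIs and were not compared.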

How the data were processed

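Single-cell RNA was measured in both aortas with 10x 3′ v3.1 chemistry. Per the file headers and the processing notes, the authors deposited raw UMI counts per gene and cell, made with Cell Ranger 4.0.0 from mm10 with eGFP and tdTomato added, without further filtering or pooling of the aortas. The notes also name Seurat 4.0. A 3′ count is not divided by transcript length, and carry-over of free RNA was not removed from the counts.

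Cells with over 200 genes, 1000 to 25000 UMIs and under 10% mitochondrial UMIs were kept (6744 and 4698), and doublets called per aorta with Scrublet (205, 3.04%, and 84, 1.79%) were removed. The labels give 6278 and 4300 cells after filtering. Counts were scaled to 10000 per cell, log-transformed and clustered in scanpy 1.11.5 (Python 3.11.15; 2000 variable genes, 30 principal components, 15 neighbours, Leiden by leidenalg 0.10.2 at resolution 1, subsets at 0.5), leaving out 59 Notch and pathway genes. Clusters (29 of 30 named) needed 3 class markers in at least 25% of cells. These names can differ from those of the study.

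Cells are not replicates, so UMIs were summed per aorta and type or subset. The sums entered edgeR 4.0.16 in R 4.3.3 (TMM, filterByExpr, quasi-likelihood test, Benjamini-Hochberg over all genes tested), with type as the only term, and the SE is the fold change divided by the root of its F. The labels describe the libraries as single aortas of separate animals, and with n = 2 the p-values rest on the spread between aortas. That spread was estimated in 1 fit over all types (16 sums) or all subsets and moderated across genes, not from the compared types alone. Sums of 1 aorta are paired by animal. Their deviations correlated between -0.041 and 0.099 over 28 pairs of types (median 0.026). Intervals are exact Clopper-Pearson at 95% and cover counting error only.

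All 10 members are named, and of the 49 pathway genes up to 5 per direction with the largest called change, and Hes1, Hey2, Rbpj, Dll1, Lfng and Mfng throughout. Subset and cluster examples outside this rule (Neurl1a, Dtx1, Hes1 and Hey2 in SMC subsets, Dtx1, Mfng, Hey2 and Dll1 in endothelial subsets, Ptcra) were picked after their values were seen. The members and lists were chosen with earlier results of these data known. Alternatives were 3 cell filters, 2 resolutions, Notch genes allowed in the clustering, library-size scaling, DESeq2 1.42.0, no gene filter, an aorta block and leaving out 1 aorta. After seeing the data, leaving out the low-UMI SMC cluster, the fibroblast clusters with SMC markers, SMC5 (among subsets and from all SMCs), the lymphatic or low-UMI subsets or erythroid cells was added. The scripts were tested on simulated data.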

Additional observations from a re-analysis of the deposited data

How the results depend on the processing

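Of 390 log2 fold changes of the 10 Notch genes under alternatives with a test, 358 kept both direction and call. No value of SMCs against endothelial cells (130) or endothelial cells against fibroblasts (130) changed direction. Between SMCs and fibroblasts, 8 of 130 did, and in each the main difference was within its error. Notch4 was at 0.0319 with 5000 to 25000 UMIs per cell, 0.0347 with no UMI limits, 0.0908 and 0.127 at resolutions 0.5 and 2, and 0.0572 with Notch genes in the clustering. Dll4 was at -0.17 with doublets kept and Notch1 at -0.13 with DESeq2 and -0.096 without SMC5. Without replicate 1 or 2, the values ranged from -0.59 to 0.25 for Notch4, from -2.29 to 3.49 for Dll4 and from -0.28 to 0.45 for Notch1 in this comparison. The Dll4 values rest on at most 4 UMIs in a type.

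The count of Notch genes higher in fibroblasts than in SMCs, 1 for Jag1 at the fold limit, was 0 with 5000 to 25000 UMIs, no UMI limits, doublets kept, resolution 0.5, resolution 2, no gene filter and the low-UMI SMC cluster left out. Notch genes higher in SMCs than in fibroblasts numbered 4, and 2 without SMC5. As given above, the Heyl call was lost in further alternatives and the Nrarp call with at least 5000 UMIs per cell. The other pathway genes higher in SMCs than in endothelial cells numbered 4, and 2 under library-size scaling (12.3% of all genes) and DESeq2 (11.8%). Pathway genes called among SMC subsets numbered 15, and 24 under library-size scaling, where 59.4% of all genes were called. The cause was not tested in these cases, beyond the shift of all genes by the scalings given above. The aorta as a block (replicate block) changed no call but that of Jag1 between endothelial cells and fibroblasts (0.999). Single aortas give values with no test, since 1 aorta leaves no residual degrees of freedom. Depth limited Dll4, Jag2 and Notch3 where a type held 3 UMIs or fewer.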
